A study of Homo sapiens with 6 samples.

Results

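The amino acid and neurotransmitter transporters of the solute carrier (SLC) families 1, 3, 6, 7, 36, 38 and 43 were examined in U373MG, a human glioblastoma cell line, after exposure to marine-derived tetrahydroisoquinoline alkaloids. The members were all genes with a symbol of these 7 families in the array's probe annotation, read from probes that carry 1 gene symbol. They came to 58 of the 18417 genes measured: 7 of SLC1, 2 of SLC3, 18 of SLC6, 13 of SLC7, 4 of SLC36, 12 of SLC38 and 2 of SLC43. SLC43A3 was on the array only with a probe shared with PRG2 and was therefore not counted.

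The study consisted of 3 independent experiments on Affymetrix Human Gene 1.0 ST arrays, which read total RNA with 1 probe set per transcript. In each experiment, 1 array came from cells exposed for 24 hours to a compound at its IC50, and 1 array from cells given the vehicle dimethyl sulfoxide (DMSO). The study determined the IC50 values by a longer treatment than the 24 hours of the arrays. The compounds were ET-770 (ecteinascidin-770, compound 1a) at 4.83 nM, ET-770-DR (compound 3, the derivative of ET-770 with a pyridinecarbonyl group) at 1.70 nM and RM (renieramycin M, compound 2a) at 3.10 nM. All cells were of this 1 line, in the same serum-containing medium, and no group carried a genetic change made for the study. Because the doses differed, the changes with the compounds are given side by side and were not compared with each other. With 1 array per arm, the change with a single compound had no replicate check. The shared response is the mean of the 3 compound-minus-DMSO changes, in which the compounds served as replicates of each other. Its p-values set this mean against the spread between experiments, which limma moderated by drawing it towards the spread common to all genes. That common spread weighed more, with 7.38 degrees of freedom against 2 from a gene's own changes. In a bulk RNA sample, fewer cells of a type and less RNA per cell cannot be told apart.

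Signals are on a log2 scale, on which a difference of 1 is a 2-fold change, and the level of one gene cannot be set against that of another. The ET-770 experiment was the brightest, with array medians of 7.28 (DMSO) and 7.30 over all probes, against 6.68 and 6.65 for ET-770-DR and 6.63 and 6.77 for RM, so levels were compared within an experiment. Of the fixed astrocytic and glioma markers, VIM read 12.91 to 13.56 on the DMSO arrays, GFAP 6.96 to 7.72 and AQP4 4.07 to 4.88. AQP4, the water channel that marks mature astrocytes, read under 6 on every array, as did 18.1% to 29.9% of all genes on an array. Of 8 such markers, S100B fell by 1.04 and CD44 by 0.43 (mean log2 change; adjusted p = 0.00082 and 0.043 by limma), and none rose. Of all genes, 11.2% fell and 13.1% rose at the same threshold. The other lists of cell type markers held 1 call each at most: NEFL of 4 neuronal genes fell by 0.80, MBP of 3 oligodendroglial genes fell by 0.43, CD68 of 4 microglial genes rose by 0.58, and none of 3 endothelial genes passed. The calls of CD44, MBP and CD68 were lost when the ET-770 experiment was left out, those of CD44 and MBP also without ET-770-DR, and that of CD44 also without RM. On the DMSO arrays the signals of these lists ran from 5.32 to 9.77, 5.34 to 8.01, 3.41 to 10.71 and 3.76 to 8.07. Their part in the results for the transporters was not tested.

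Amino acids are charged or polar and cross membranes only through carriers. High-affinity glutamate carriers of SLC1 clear the transmitter glutamate in brain, and carriers of SLC6 take up GABA, glycine, monoamines, taurine and creatine with sodium and chloride. The light chains of SLC7 reach the cell surface as heterodimers with a heavy chain of SLC3 and exchange one amino acid for another. In glioma, the cystine and glutamate exchanger xCT, made of SLC7A11 and SLC3A2, is known for supplying cysteine for glutathione while releasing glutamate. Several of these genes are known targets of ATF4, the transcription factor that is translated when amino acids are short or the endoplasmic reticulum is stressed.

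In the shared response, 9 of the 58 transporters fell and 3 rose. Those that fell were the glutamate carriers SLC1A1 and SLC1A3, the taurine carrier SLC6A6, the exchanger light chains SLC7A11 and SLC7A5, and SLC38A11, SLC38A9, SLC38A6 and SLC38A12. Those that rose were the heavy chain SLC3A2, the neutral amino acid carrier SLC38A2 and the branched-chain amino acid carrier SLC43A2. The 9 that fell were 15.5% of the members, against 11.2% of all genes, and the 3 that rose were 5.17%, against 13.1% of all genes (adjusted p under 0.05 by limma, adjusted over 18417 genes). The median of the mean log2 changes was -0.03 over the members and 0.03 over all genes. By compound, it was -0.04, -0.17 and 0.06 over the members with ET-770, ET-770-DR and RM, against 0.02, -0.03 and 0.12 over all genes. With every compound, 10 members were higher and 16 were lower than in their own DMSO arrays, and 32 went in different directions.

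**Figure D1:**
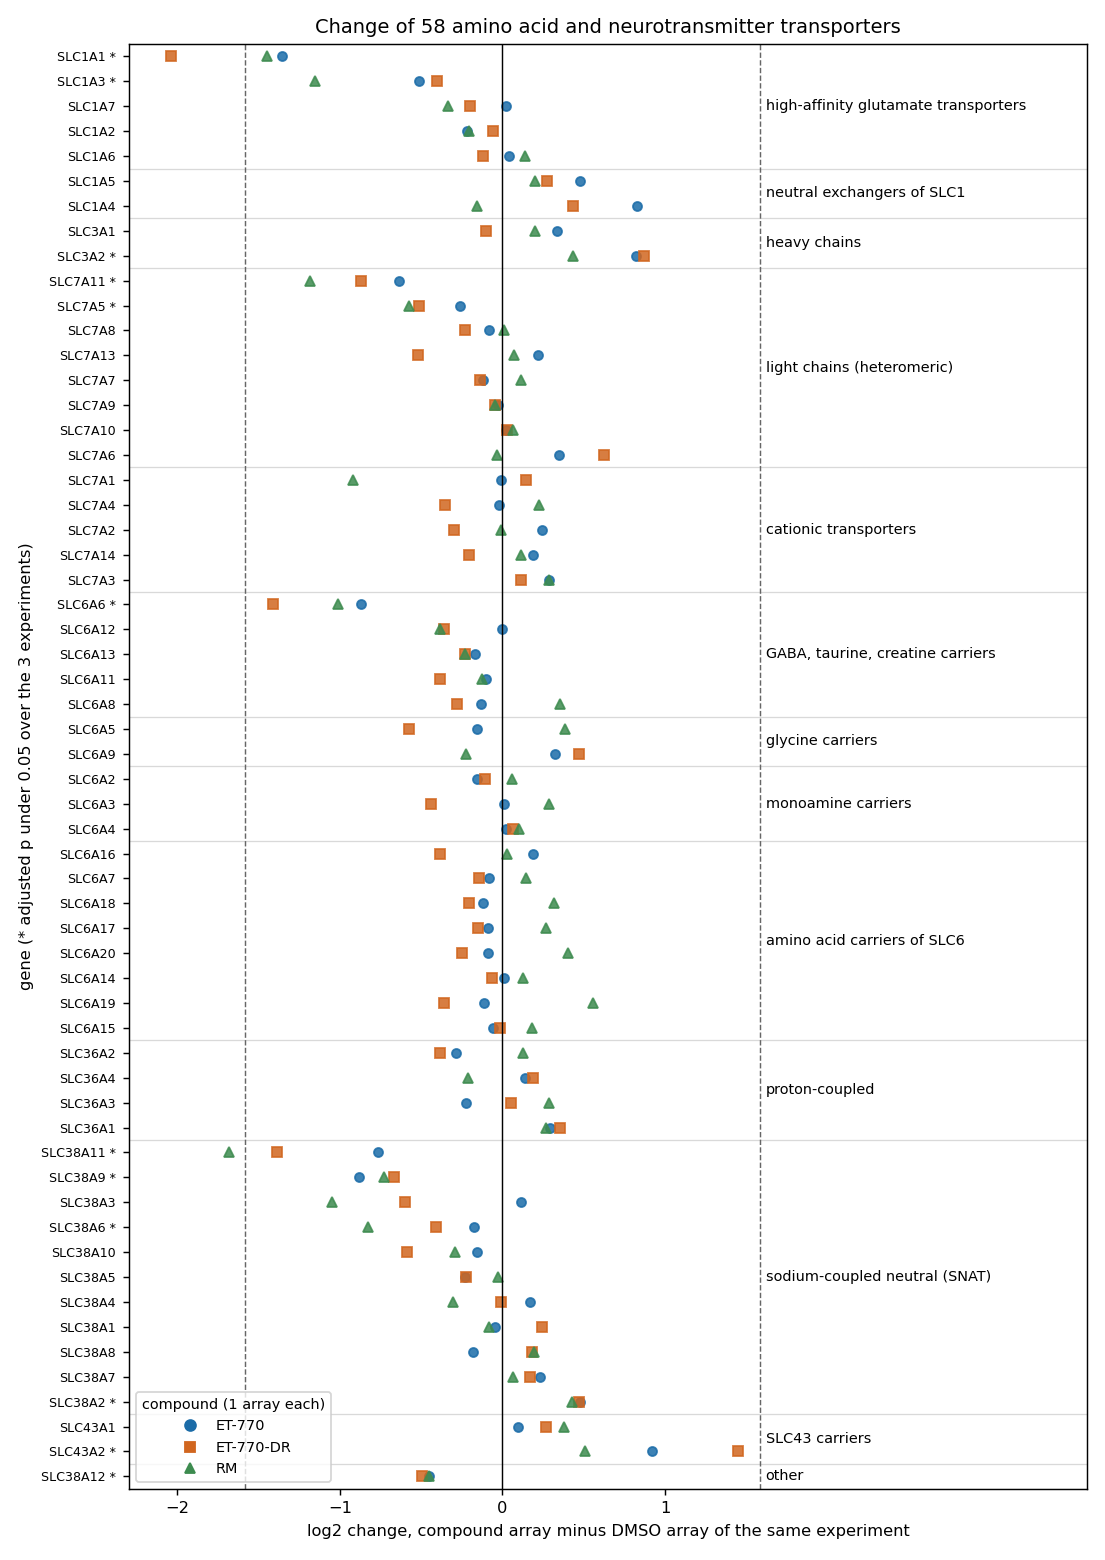
Log2 change, compound array minus own DMSO array (horizontal axis), of each of the 58 transporters, grouped by role, with 1 point per experiment. Dashed lines mark 3-fold and 1/3-fold, and an asterisk marks an adjusted p under 0.05. The points of SLC1A1 lie between -1.36 and -2.04, and those of most SLC6 and SLC36 genes lie on both sides of 0.

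Among the 5 high-affinity glutamate transporters, 2 fell and none rose. SLC1A1 (EAAT3, which takes up glutamate, aspartate and cysteine) read 8.66 with DMSO and 7.31 with ET-770, 8.03 with DMSO and 5.99 with ET-770-DR, and 8.61 with DMSO and 7.16 with RM. All compound arrays lay below all DMSO arrays, and the levels were 0.390-fold, 0.243-fold and 0.366-fold of their own controls. The mean log2 change was -1.62 ± 0.37 (SD, n = 3 experiments), with a moderated SE of 0.154 and an adjusted p of 9.2e-05 by limma. SLC1A1 had the largest mean fall of the 58 transporters.

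SLC1A3 (EAAT1 or GLAST, the glutamate carrier of astrocytes) read 9.77 and 9.26, 8.83 and 8.43, and 10.83 and 9.67 in the 3 experiments, DMSO first. Each compound array was below its own control, but the groups overlapped, since the DMSO arrays themselves spanned 2.00 log2 units, more than any of the changes, and still spanned 1.72 after quantile normalization. The mean log2 change was -0.69 ± 0.41 (SD, n = 3 experiments; adjusted p = 0.012 by limma), and without the RM experiment it was -0.46, still past the threshold. SLC1A2 (EAAT2), the main glutamate carrier of mature astrocytes, read from 4.62 to 5.18 on the 6 arrays and did not pass, nor did SLC1A6 and SLC1A7, at 5.48 to 6.57. The neutral exchangers of the same family did not pass either: SLC1A4 (ASCT1) changed by 0.83, 0.44 and -0.16 with ET-770, ET-770-DR and RM, and SLC1A5 (ASCT2, a glutamine carrier) by 0.47, 0.27 and 0.20 (adjusted p = 0.18 and 0.10 by limma). Without the RM experiment both passed. SLC1A5 was averaged from 2 probes, which changed by 0.48 and 0.47, 0.11 and 0.43, and 0.34 and 0.06 in the 3 experiments, dimmer probe first.

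The heteromeric exchanger subunits that passed went in opposite directions. SLC7A11 (xCT), the light chain that imports cystine for glutamate, read 12.46 with DMSO and 11.82 with ET-770, 11.92 with DMSO and 11.05 with ET-770-DR, and 11.85 with DMSO and 10.66 with RM. All compound arrays lay below all DMSO arrays, the lowest DMSO signal, 11.85, lying just over the highest compound signal, 11.82. Its mean log2 change was -0.90 ± 0.27 (SD, n = 3 experiments), with an adjusted p of 0.0014 by limma. SLC3A2 (4F2hc or CD98), the heavy chain that brings SLC7A11, SLC7A5 and other light chains to the membrane, read 12.32 and 13.15, 12.01 and 12.88, and 12.16 and 12.59. It was the only member with all compound arrays above all DMSO arrays, and its mean log2 change was 0.71 ± 0.24 (SD, n = 3 experiments; adjusted p = 0.0041 by limma).

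SLC7A5 (LAT1, the exchanger of large neutral amino acids such as leucine) read 11.98 and 11.72, 11.51 and 11.00, and 11.02 and 10.44, DMSO first. Each compound array was lower than its own control by 0.26, 0.51 and 0.58, while the groups overlapped, and the mean log2 change was -0.45 (moderated SE 0.127; adjusted p = 0.028 by limma). Partial copies of this gene exist in the genome, and whether its probe reads them was not tested. SLC7A6 (y+LAT2) changed by 0.35, 0.63 and -0.04 and did not pass (adjusted p = 0.18 by limma), except without the RM experiment. The other 5 light chains had mean changes from -0.10 to 0.04 and did not pass. Of these, SLC7A10 (Asc-1) read 7.39 to 8.03 and changed by 0.02, 0.03 and 0.06, whereas SLC7A13 read 2.95 to 3.92. The second heavy chain, SLC3A1, which serves the cystine carrier of kidney, read 4.89 to 5.48 and did not pass.

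None of the 5 cationic amino acid transporters and their relatives passed. SLC7A1 (CAT1, the carrier of arginine and lysine) read 10.53 and 10.53, 9.83 and 9.98, and 9.82 and 8.90, DMSO first. The changes were -0.01, 0.14 and -0.92, the last on the RM array, and the mean change of -0.26 had a 95% interval from -0.69 to 0.18. SLC7A2, SLC7A3, SLC7A4 and SLC7A14 had mean changes from -0.05 to 0.23.

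**Figure D2:**
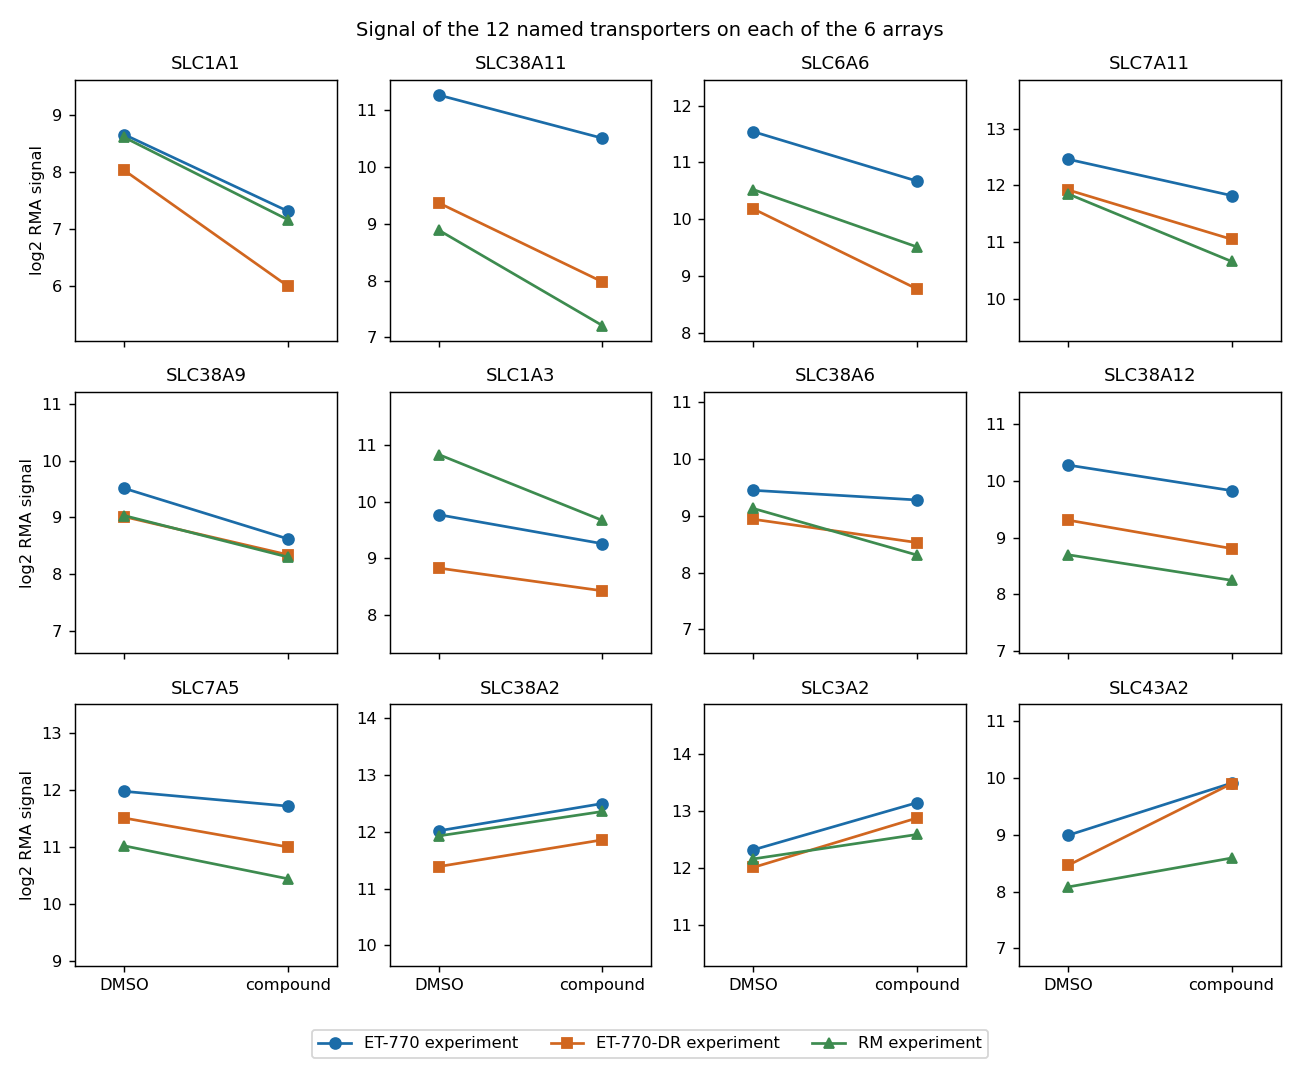
Log2 RMA signal (vertical axis) of the 12 transporters past the threshold, with 1 line per experiment from its DMSO array to its compound array, and with an axis of the same length in every panel. All 3 lines go down for SLC1A1 and the other 8 transporters that fell, and all 3 go up for SLC38A2, SLC3A2 and SLC43A2.

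Of the 18 carriers of SLC6, SLC6A6 passed. SLC6A6 (TauT), which takes up taurine, an osmolyte of glia, read 11.54 with DMSO and 10.67 with ET-770, 10.18 with DMSO and 8.77 with ET-770-DR, and 10.52 with DMSO and 9.51 with RM. The groups overlapped only because the ET-770 array, at 10.67, lay above the DMSO arrays of the other experiments. After quantile normalization the groups no longer overlapped. The mean log2 change was -1.10 ± 0.28 (SD, n = 3 experiments), with an adjusted p of 0.00048 by limma. The creatine carrier SLC6A8, read here from the probe it does not share with its pseudogenes, changed by -0.13, -0.28 and 0.35 and did not pass. The glycine carrier SLC6A9 (GlyT1) changed by 0.32, 0.47 and -0.22 and passed only without the RM experiment (adjusted p = 0.47 by limma with all 3). The other glycine carrier, SLC6A5, changed by -0.15, -0.57 and 0.38, at signals of 4.91 to 5.89. It did not pass (adjusted p = 0.76 by limma with all 3), but passed as lower without the RM experiment.

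The other SLC6 genes include the carriers of noradrenaline (SLC6A2), dopamine (SLC6A3) and serotonin (SLC6A4), which define monoamine neurons. Their mean changes were -0.07, -0.05 and 0.06, their signals ran from 5.34 to 7.50, and none passed. The GABA and betaine carriers SLC6A11, SLC6A12 and SLC6A13 had mean changes of -0.20, -0.25 and -0.21. None of their single changes was above 0, yet none of the 3 genes passed. The 8 amino acid carriers of this family, among them the intestinal and renal SLC6A19, had mean changes between -0.06 and 0.04. These means lay closer together than in any other role with at least 3 members. The single changes spread more widely, from -0.39 (SLC6A16 with ET-770-DR) to 0.56 (SLC6A19 with RM), at signals of 3.38 to 7.05.

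Of the 11 sodium-coupled neutral amino acid transporters (SNAT) of SLC38, 3 fell and 1 rose. SLC38A11, a member whose substrate is little known, read 11.27 and 10.51, 9.37 and 7.98, and 8.89 and 7.21, DMSO first. The DMSO arrays spanned 2.38 log2 units, and 1.97 after quantile normalization, so the groups overlapped. In each experiment the compound array was lower, at 0.589-fold, 0.382-fold and 0.312-fold of its control, and the mean log2 change was -1.28 ± 0.47 (SD, n = 3 experiments; adjusted p = 0.00064 by limma).

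SLC38A9, the lysosomal carrier that reports arginine to mTORC1, read 9.51 and 8.62, 9.01 and 8.34, and 9.03 and 8.30. All compound arrays lay below all DMSO arrays, and the mean log2 change was -0.76 ± 0.11 (SD, n = 3 experiments; adjusted p = 0.0017 by limma). SLC38A6 read 9.45 and 9.28, 8.94 and 8.53, and 9.13 and 8.31, and passed only narrowly (mean log2 change -0.47; adjusted p = 0.044 by limma). Leaving out any of the 3 experiments ended its call.

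SLC38A2 (SNAT2), a glutamine and alanine carrier known to be induced when amino acids are withdrawn, read 12.02 and 12.50, 11.39 and 11.86, and 11.93 and 12.36. Its changes of 0.48, 0.47 and 0.43 were nearly equal in the 3 experiments. The groups overlapped, but no longer did so after quantile normalization. The mean was 0.46 ± 0.03 (SD, n = 3 experiments), with a moderated SE of 0.119 and an adjusted p of 0.020 by limma. Its neighbours on chromosome 12 in the RefSeq gene order are SLC38A1 and SLC38A4, and neither passed. SLC38A1 (SNAT1), a glutamine carrier, changed by -0.05, 0.24 and -0.08, with a 95% interval of the mean from -0.25 to 0.33.

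SLC38A10 was lower with every compound, by 0.16, 0.59 and 0.29 (adjusted p = 0.092 by limma), and passed after quantile normalization and without the RM experiment. SLC38A3 (SNAT3), which releases glutamine from astrocytes, changed by 0.11, -0.60 and -1.05 (adjusted p = 0.093 by limma), and passed without the ET-770 experiment. The lysosomal glutamine carrier SLC38A7 changed by 0.23, 0.17 and 0.06 and did not pass. SLC38A12, the symbol under which the annotation lists TMEM104, read 10.28 and 9.83, 9.31 and 8.81, and 8.70 and 8.25. Its changes, -0.45, -0.50 and -0.45, were as even as those of SLC38A2 and of the opposite sign (mean log2 change -0.47; adjusted p = 0.018 by limma).

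Of the SLC43 carriers, which pass large neutral amino acids without sodium, SLC43A2 (LAT4) rose. It read 8.99 and 9.91, 8.46 and 9.90, and 8.08 and 8.59, at 1.89-fold, 2.73-fold and 1.42-fold of its own DMSO level. It overlapped between the groups because the RM array, 8.59, lay below the DMSO array of the ET-770 experiment. Its mean log2 change of 0.96 ± 0.47 (SD, n = 3 experiments; adjusted p = 0.0032 by limma) was the largest rise of the 58. SLC43A1 (LAT3) was higher by 0.09, 0.27 and 0.38 and did not pass (adjusted p = 0.21 by limma).

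None of the 4 proton-coupled transporters of SLC36 passed. SLC36A1 (PAT1), a lysosomal amino acid carrier, was higher with every compound, by 0.29, 0.35 and 0.27 (adjusted p = 0.098 by limma). SLC36A4 changed by 0.14, 0.19 and -0.21, while SLC36A2 and SLC36A3, at signals of 4.10 to 6.41, had mean changes of -0.18 and 0.04. Over all 46 members that did not pass, the mean log2 changes ran from -0.51 to 0.37, and their 95% intervals reached from -0.95 to 0.77, so changes of that size cannot be set aside. Of the 58, 18 had a mean signal under 6 and none of these passed, and all 12 calls fell among the other 40. In a fit with genes under 6 filtered out, 2662 of 13906 genes rose and 2078 fell, beside the same 12 of 40 members.

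Against the thresholds of 3-fold and 1/3-fold that the study's methods set, few transporters stood out with a single compound. With ET-770 none was under 1/3-fold (2.15% of all genes) and none over 3-fold (0.233%). With ET-770-DR, SLC1A1 was under 1/3-fold (2.12% of all genes) and none was over 3-fold (0.51%). With RM, SLC38A11 was under 1/3-fold (1.36% of all genes) and none was over 3-fold (0.0434%). SLC38A11 lay just past this threshold, at 0.312-fold, and SLC1A1 just short of it in the RM experiment, at 0.366-fold.

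At a looser threshold of 2-fold, the count under 0.5-fold was 1 with ET-770 (SLC1A1; 4.68% of all genes), 3 with ET-770-DR (SLC1A1, SLC38A11 and SLC6A6; 4.94%) and 6 with RM (SLC1A1, SLC1A3, SLC38A11, SLC38A3, SLC6A6 and SLC7A11; 4.28%). The 6 with RM were 10.3% of the members. Over 2-fold there was none with ET-770 (2.01% of all genes), SLC43A2 with ET-770-DR (3.84%) and none with RM (0.668%). All compound arrays lay below all DMSO arrays for 3 members (SLC1A1, SLC38A9 and SLC7A11), which was 5.17%, against 5.34% of all genes, and above them for SLC3A2, against 3.62% of all genes. After quantile normalization of all 6 arrays these counts were 6 and 2, while the shares of all genes were 10.7% and 6.71%. The members gained were SLC38A6, SLC6A11 and SLC6A6 below and SLC38A2 above.

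The calls rest on few arrays. Without the experiment as a term in the fit, SLC1A1 alone passed. SLC38A2, SLC38A6, SLC38A12 and SLC7A5 lost their calls without the ET-770 or without the ET-770-DR experiment. A fit with an experiment left out has fewer changes per gene and leans more on the spread common to all genes. Without the ET-770 experiment the adjusted p of SLC1A1 by limma was 6e-12, against 9.2e-05 with all experiments. Passing such a fit is therefore no like-for-like check of a gene's own changes.

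**Figure D3:**
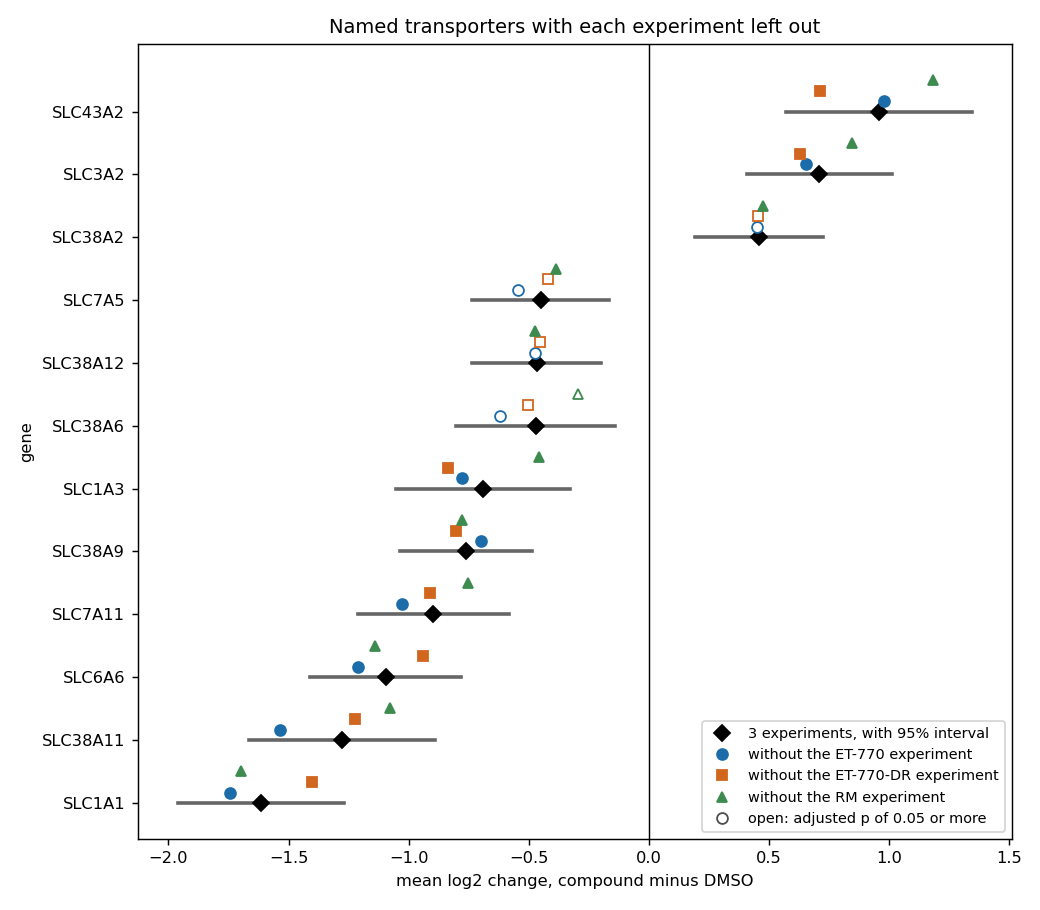
Mean log2 change, compound minus DMSO (horizontal axis), of the 12 transporters that passed, from all 3 experiments with its 95% interval and with each experiment left out, where open symbols did not pass. The symbols of SLC38A2, SLC7A5, SLC38A12 and SLC38A6 are partly or all open, and no symbol crosses 0.

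Genes that work with these transporters were taken from 4 lists, and the genes named here were chosen after their values were seen. In the amino acid response, 12 of 23 genes rose and 4 fell, against 13.1% and 11.2% of all genes, and the median of the mean log2 changes was 0.53, against 0.03 over all genes. The 12 came to 7 without the ET-770 experiment and to 0 without the experiment as a term. CHAC1, which breaks down glutathione, rose by 1.40, and ASNS, the asparagine synthetase, by 0.81 (adjusted p = 0.00017 and 0.0070 by limma). ATF4 itself rose by 0.39 (adjusted p = 0.043 by limma) and did not pass after quantile normalization or when the ET-770 or the ET-770-DR experiment was left out. DDIT4, an inhibitor of mTORC1 that ATF4 can induce, fell by 1.80 (adjusted p = 2.2e-05 by limma).

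In the list on cystine and glutathione, 4 of 12 measured genes rose and none fell, against the same 13.1% and 11.2% of all genes, with a median of 0.23. Without the experiment as a term none of the 4 passed. CTH, which makes cysteine from cystathionine, rose by 1.17, and GCLC, the catalytic subunit of the first enzyme of glutathione synthesis, by 0.76 (both adjusted p = 0.0019 by limma). On the same arrays SLC7A11, the importer of cystine, fell by 0.90. Of 9 measured genes of glutamate and glutamine metabolism, PPAT, the first enzyme of purine synthesis, rose by 0.83 (adjusted p = 0.0041 by limma), and the median was -0.03. The count of 1 was 2 without the RM experiment or with the eBayes trend, and 0 without the experiment as a term.

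In amino acid sensing by mTORC1, 5 of 20 measured genes rose and 3 fell, against 13.1% and 11.2% of all genes, with a median of 0.10. The 5 came to 2 without the ET-770 experiment, to 3 without ET-770-DR and to 0 without the experiment as a term. Those that fell were the kinase MTOR, by 0.94, its partner RPTOR, by 1.98, and the transporter SLC38A9 described above (adjusted p = 0.00053, 3.6e-05 and 0.0017 by limma). RPTOR read 9.60 and 7.44, 8.71 and 6.45, and 8.46 and 6.95, with all compound arrays below all DMSO arrays. SESN2, a leucine sensor that is also in the amino acid response list, rose by 1.28 (adjusted p = 0.00043 by limma). The others that rose were FLCN by 0.845, NPRL2 by 0.489, RRAGC by 0.475 and RRAGB by 0.465 (adjusted p = 0.0018, 0.02, 0.02 and 0.026 by limma).

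**Figure D4:**
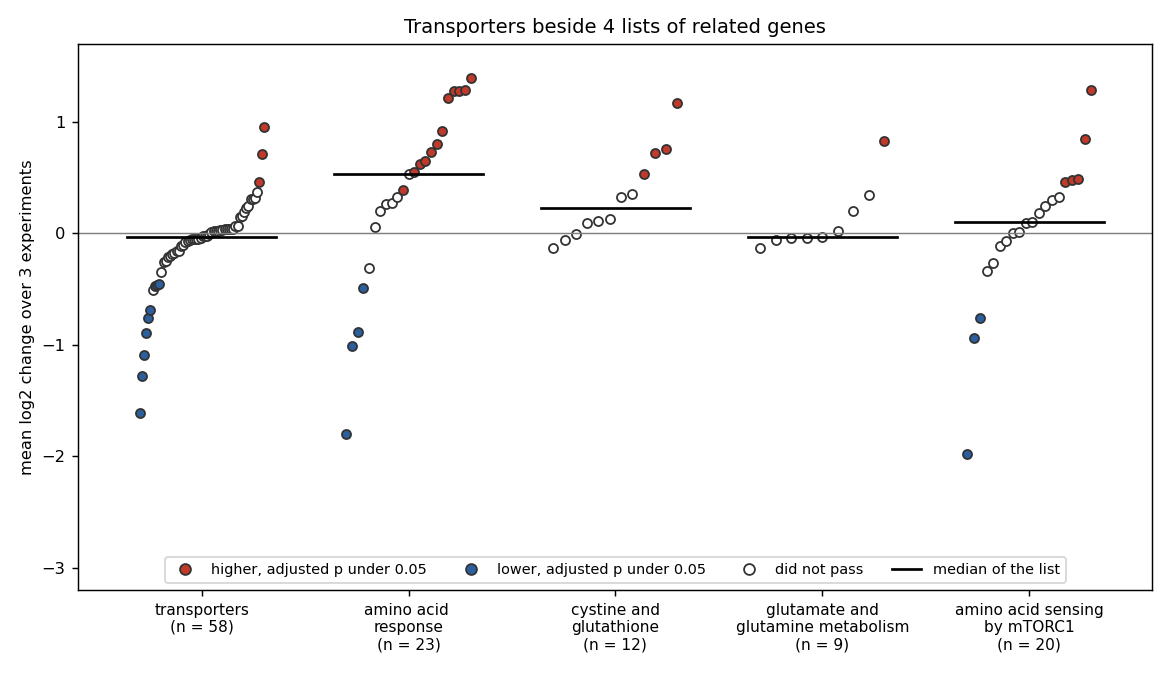
Mean log2 change over the 3 experiments (vertical axis) of the 58 transporters and of the measured genes of 4 related lists, 1 point per gene in rising order, filled where the adjusted p was under 0.05. The median of the amino acid response list, 0.53, stands above that of the transporters, -0.03, and RPTOR, at -1.98, is the lowest point in the mTORC1 list.

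Because the ATF4 response was among these lists, the promoters of the transporters were read for the core of the amino acid response element, to which ATF4 binds with a C/EBP partner. RefSeq promoter windows of build GRCh38.p14, from 250 bases before to 50 bases after a transcription start, were at hand for 45 of the 58 genes, in 67 windows. The core TGATGNAA, searched on both strands, was in 6 of the 67 windows (8.96%), against 3.62% of 35116 windows of the same length of all genes. The 6 windows belonged to 6 transporters. The sites are printed 5′ to 3′ along the annotated (coding) strand of the gene. The core is in capitals and reads in reverse complement for SLC1A4 and SLC3A2.
SLC1A3: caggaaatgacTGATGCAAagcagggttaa
SLC1A4: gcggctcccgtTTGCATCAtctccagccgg
SLC1A5: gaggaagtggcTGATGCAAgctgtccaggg
SLC38A1: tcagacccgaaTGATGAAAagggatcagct
SLC3A2: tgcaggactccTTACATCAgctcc
SLC7A1: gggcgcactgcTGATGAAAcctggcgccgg

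The stretches lie at chr5:36596357-36596386 (plus strand, SLC1A3), chr2:64989381-64989410 (plus strand, SLC1A4), chr19:46784893-46784922 (minus strand, SLC1A5), chr12:46266502-46266531 (minus strand, SLC38A1), chr11:62881725-62881748 (plus strand, SLC3A2) and chr13:29595663-29595692 (minus strand, SLC7A1). SLC1A3, SLC1A4 and SLC1A5 share the core TGATGCAA, and SLC38A1 and SLC7A1 the core TGATGAAA. These 6 genes did not move one way, as SLC3A2 rose, SLC1A3 fell and the other 4, with mean log2 changes of 0.37, 0.31, 0.04 and -0.26 for SLC1A4, SLC1A5, SLC38A1 and SLC7A1, did not pass. The antioxidant core, TGACNNNGC or TGAGNNNGC, was in 24 of the 67 windows (35.8%) and in 29.1% of all, and the E-box CACGTG in 10 (14.9%) and in 7.26% of all. None of the 6 printed cores overlapped either of these. A match is a stretch of letters and not a shown binding site.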

How the data were processed

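The deposited values are log2 signals, obtained by the authors with the RMA method of Affymetrix Expression Console (version not given in the sources used here). Whether the 3 experiments were normalized together was not established. Of 33297 probes, 19460 carry a single gene symbol in the annotation, and these were kept and averaged per gene (18417 genes). Of the transporters, SLC1A5 and SLC7A14 were read by 2 probes each.

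The shared response was estimated by limma 3.58.1 (R 4.3.3) from arm and experiment as terms and eBayes without trend, on all 18417 genes, with Benjamini-Hochberg adjustment and a threshold of 0.05. The experiment was kept as a block because the labels tie each DMSO array to its compound and the study's methods describe 3 independent experiments. Deviations from the group means correlated within an experiment at 0.83, 0.69 and 0.82 and across experiments at -0.68 to 0.24. The deviations of a gene within a group cancel out, which by itself lowers the values across experiments. Folds for single compounds are relative to that compound's own DMSO array. The number of arrays limits the precision. The fit was tested on simulated data. Python 3.11.15, numpy 2.4.6, pandas 2.3.3 and matplotlib 3.10.9 served the other steps.

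Members named with full values were SLC7A11, SLC7A5, SLC1A3, SLC3A2, every member past 3-fold or 1/3-fold with any compound and every member with an adjusted p under 0.05. The members, the role groups and the gene lists were chosen with earlier results of these data known. The RefSeq gene table (GRCh38.p14) served for names and neighbours, and all 58 members were found in it. Alternatives were a fit without the block, quantile normalization, a filter on mean log2 signal of 6, eBayes with trend, the brightest probe per gene, each experiment left out, the mean of the 3 DMSO arrays as control and a threshold of 2-fold.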

Additional observations from a re-analysis of the deposited data

Results flagged for a closer look

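SLC38A3 and SLC7A1 went in opposite directions with different compounds, by at least 1 on the log2 scale between the lowest and the highest change. SLC38A3 changed by -1.05 with RM and by 0.11 with ET-770. SLC7A1 changed by -0.92 with RM and by 0.14 with ET-770-DR. Each value comes from 1 compound array and 1 DMSO array, the doses differed, and the difference was not tested. A signal outside the measured genes came from the probe shared by SLC43A3 and PRG2, which was higher than on the matching DMSO array by 0.92 (ET-770), 0.55 (ET-770-DR) and 0.23 (RM). Which of the 2 genes it reads cannot be told apart.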

How the results depend on the processing

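Of the 12 calls, all 12 remained after quantile normalization, which added SLC38A10, with the signal filter and with the eBayes trend. They also remained with the brightest probe per gene. That setting could not test them, since each of the 12 was read by 1 probe and kept its values. Without the replicate block, 0 transporters rose and 1 fell (26 and 369 over all genes), and SLC1A1 was the only one of the 12 to keep its call under all 8 alternatives to the fit. With 1 experiment left out, the number that rose ranged from 2 to 7 and the number that fell from 6 to 10. Over all 18417 genes these numbers ranged from 1200 to 3506 and from 1505 to 2635, each highest without RM. The 7 came without RM, which added SLC1A4, SLC1A5, SLC6A9 and SLC7A6 among those that rose, and SLC38A10 and SLC6A5 among those that fell. At 2-fold, the transporters lower than DMSO numbered 1 (ET-770), 3 (ET-770-DR) and 6 (RM), and 1 was higher (ET-770-DR). Against the mean of the 3 DMSO arrays, 3 were lower with ET-770-DR, but this control shifted the median of all genes by 0.43 (ET-770), -0.22 (ET-770-DR) and -0.24 (RM). After quantile normalization, an alternative chosen after seeing the data, 6 transporters lay below and 2 above all DMSO arrays (10.7% and 6.71% of all genes). Of the 58 transporters, 23 turned the sign of their mean change under at least 1 alternative, none of them a called one. Among the 24 that passed, had a mean log2 signal of 8 or more, or changed in opposite directions by at least 1 between compounds, these were 4: SLC36A4 (-0.051 after quantile normalization and -0.037 to 0.164 with 1 experiment left out), SLC38A1 (-0.049 and -0.064 to 0.099), SLC6A8 (-0.207 to 0.11 with 1 experiment left out) and SLC7A1 (-0.462 to 0.068). Over these 24 and all alternatives, 157 of the other comparisons kept their side of the threshold, 20 lost the call and 7 gained it. The 157 include the brightest-probe setting, which left the values of every member read by 1 probe unchanged. The cause of these changes was not tested.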

Other observations

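The array also holds 2 probes that SLC6A8, the creatine carrier, shares with its pseudogene copies. They read 12.58 and 12.53 on the DMSO array of the ET-770 experiment, 11.95 and 11.82 on that of the ET-770-DR experiment and 8.99 and 8.68 on that of the RM experiment. The changes with the compounds were -0.16 and -0.17, -0.23 and -0.24, and 0.60 and 0.60. The 2 probes of SLC7A14 differed in the ET-770-DR experiment, at -0.61 and 0.21.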
